A study of Danio rerio with 12 samples.

Results

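The cytosolic ribosomal protein genes encode the proteins of the large (rpl) and small (rps) subunits of the ribosome. They were taken as every gene whose symbol begins with rpl or rps and a number, apart from the rps6k kinases, together with rpsa. Of 81 such symbols in the RefSeq gene table, 79 lay on the array and all 79 were tested, 44 of the large and 35 of the small subunit, among 12616 genes tested in all. The other 2 symbols matched no probe. The prefix rule takes rps27a, whose protein is made as a fusion with ubiquitin, and leaves out the P stalk proteins (rplp0, rplp1, rplp2), which are described separately.

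RNA came from the gills of adult zebrafish (Danio rerio), pooled from 10 fish per sample. The 3 control pools were untreated. The 3 pools of each other group had spent 96 h in water with nanoparticles of copper oxide (CuO, 0.2 mg/L), zinc oxide (ZnO, 4.8 mg/L) or nickel oxide (NiO, 17.5 mg/L), doses that the labels set as a fraction of each particle's median lethal concentration. All fish were kept without food during the exposure, and the labels name no strain. The question the design puts is whether the exposures change gill transcripts, and here it is asked of the ribosome.

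A ribosome needs its proteins in equal numbers, and cells produce them in large amounts. In vertebrates most ribosomal protein mRNAs carry a terminal oligopyrimidine tract, through which mTOR signalling and the RNA-binding protein LARP1 set their translation and stability. Much of the control of these genes in nutrient or stress responses is therefore known to lie in translation, which an array of total RNA does not measure.

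Each pool was hybridised to one Agilent array, and a level is the log2 of the processed Cy3 signal minus the log2 of the 75th percentile of that array. The share of spots well above background was 75.5 to 88.4% per array, with 0 saturated spots, and the number of arrays limits the precision. The 3 slides each carried 1 array of every group, always in the same order, so slide position and group cannot be told apart. Marker genes of other tissues differed between the arrays. Of 26 oocyte genes, all 26 were well above background on the 3 control arrays, with a summed linear level of 372 to 486 relative to the 75th percentile; the CuO arrays summed to 1.22 to 5.42, the ZnO arrays to 0.689 to 2.04 and the NiO arrays to 2.72 to 198. The summed level of 17 proliferation genes was 77 to 90.9 in the controls and 12 to 41.2 in the exposed groups. Gill markers were present in every group: 18 epithelial genes summed to 160 to 212 in the controls and 240 to 361 after exposure, and 21 ionocyte genes to 34.7 to 53.5 and 72 to 130. These sums weigh bright genes most. The median ionocyte gene read -3.51 to -1.52 on the controls, -3.35 on CuO 3 and -1.18 to 1.59 on the other exposed arrays. At the adjusted p used below, 5.56, 33.3 and 27.8% of the epithelial genes rose (CuO, ZnO, NiO). The ionocyte shares were 14.3, 19 and 19%, against 11.4, 13.8 and 10.1% of all genes. In pooled tissue, fewer cells of a type and less RNA per cell cannot be told apart.

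The ribosomal protein transcripts differed little between exposed and control gills. No member rose under any exposure and 1 fell, rpl7l1 under CuO, with limma and Benjamini-Hochberg adjustment over all genes at an adjusted p of 0.05. That is 1.27% of the members called under CuO, where 25.1% of all genes were called (11.4% higher, 13.7% lower). Under ZnO 0 of 79 members were called against 25.7% of all genes (13.8% higher, 11.9% lower), and under NiO 0 of 79 against 22.2% (10.1% higher, 12.1% lower). At an unadjusted p under 0.05 the members numbered 3 under CuO (2 higher, 1 lower), 0 under ZnO and 2 under NiO (1 higher, 1 lower), against 40.2, 39.3 and 36.6% of all genes. The F test over the 4 groups called 0 members (1 at an unadjusted p under 0.05), against 20.9% of all genes (36.4% at an unadjusted p under 0.05).

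The size of the differences was small as well as uncalled. The member differences from control lay within 0.5 on the log2 scale for 73 of 79 members under CuO, 76 under ZnO and 77 under NiO, or 92.4, 96.2 and 97.5%. Among all genes tested the same bound held 26.7, 29.5 and 31.1%. The comparison is not matched for signal: the median level on the controls averaged 4.46 for the members and -0.40 for all genes. The 95% interval of the difference stayed inside a 2-fold change both ways for 62 members under CuO, 60 under ZnO and 71 under NiO; the upper end reached 2-fold for 16, 18 and 7 members and the lower end for 2 in each comparison. The median interval ran 0.61 to either side under CuO and ZnO and 0.62 under NiO, without adjustment for the number of genes. Changes below about this size could not be resolved with 3 arrays a group, and larger ones could also miss the adjusted threshold. The largest positive member difference, 1.08 under NiO, was not called. The SD within groups had a median of 0.26 over the members and 0.60 over all genes.

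**Figure D1:**
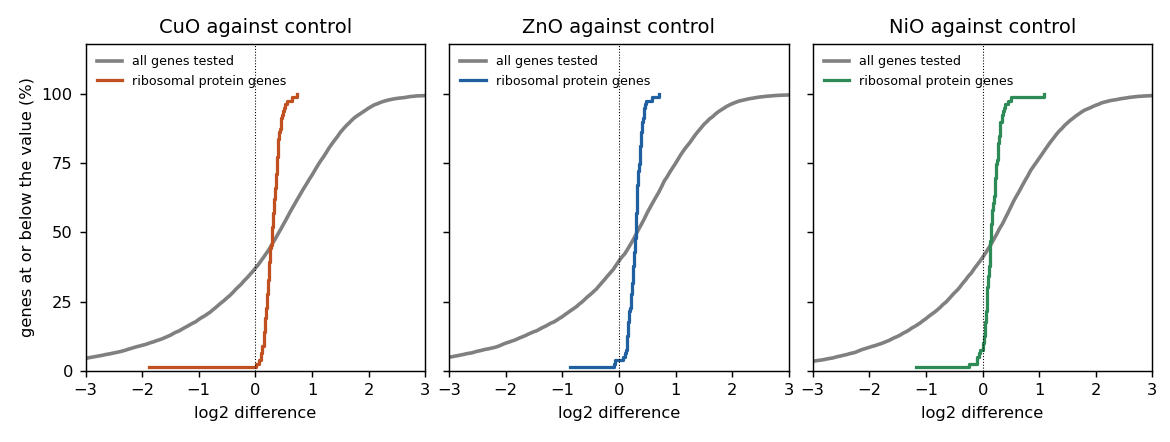
Cumulative share of genes (%, vertical axis) at or below each log2 difference from control (horizontal axis) for the 79 ribosomal protein genes (coloured steps) and the 12616 genes tested (grey line), in one panel per exposure. The coloured steps climb almost entirely between 0 and 0.5, with rpl7l1 as the lone step far to the left, while the grey curve spreads over several units. The farthest steps to the right lie at 0.74 under CuO, 0.70 under ZnO and 1.08 (rps20) under NiO.

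Relative to the 75th percentile, nearly all members lay slightly above control. The direction turned in every comparison under 2 of the alternatives below and, for NiO alone, without control 1. A further alternative, centring the arrays on the members, holds their median near 0 by construction (-0.00035 under CuO, -0.0066 under ZnO). The difference was positive for 78 of 79 members under CuO (median 0.30), 76 under ZnO (median 0.29) and 73 under NiO (median 0.15). With no scaling between arrays the medians turned to -0.089, -0.11 and -0.16. With the oocyte list mean as a covariate they turned to -0.045, -0.13 and -0.087. That mean nearly repeats the split into control and exposed arrays, with only NiO 1 near the controls, so that fit cannot separate oocyte RNA from exposure. The median over all genes was 0.42, 0.32 and 0.27 in the same comparisons, so the median member lay no higher than the median gene with all arrays in the fit. Without control 1 the member medians were 0.11 under CuO, 0.10 under ZnO and -0.03 under NiO, with 59, 63 and 32 of 79 members positive, against medians of 0.35, 0.30 and 0.22 over all genes.

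After scaling, control 1 held the lowest member levels. The median level over the members was 4.10 on control 1, 4.70 on control 2 and 4.59 on control 3. It was 4.72, 4.84 and 4.73 on the CuO arrays, 4.65, 5.05 and 4.59 on the ZnO arrays, and 4.46, 4.78 and 4.68 on the NiO arrays. Control 1 was the lowest of the 12 arrays for 66 of the 73 members with a value on every array, and ZnO 2 the highest for 49. Controls 2 and 3 thus lay within the range of the exposed arrays, and control 1 lay below all of them.

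The 75th percentile used for scaling ran the other way. It was 3319 signal units on control 1, the highest of the arrays, and 1390 on ZnO 2, the lowest. Before scaling, the median processed signal of the members lay between 45249 and 58876 units on all arrays, a range of 0.38 on the log2 scale, against 0.95 after scaling and 1.26 for the 75th percentile itself. The brightest probe of any kind reached 209101 to 464770 units and the brightest member 90266 to 135490. The part of the scaling in the member differences was not tested beyond the alternatives given here.

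**Figure D2:**
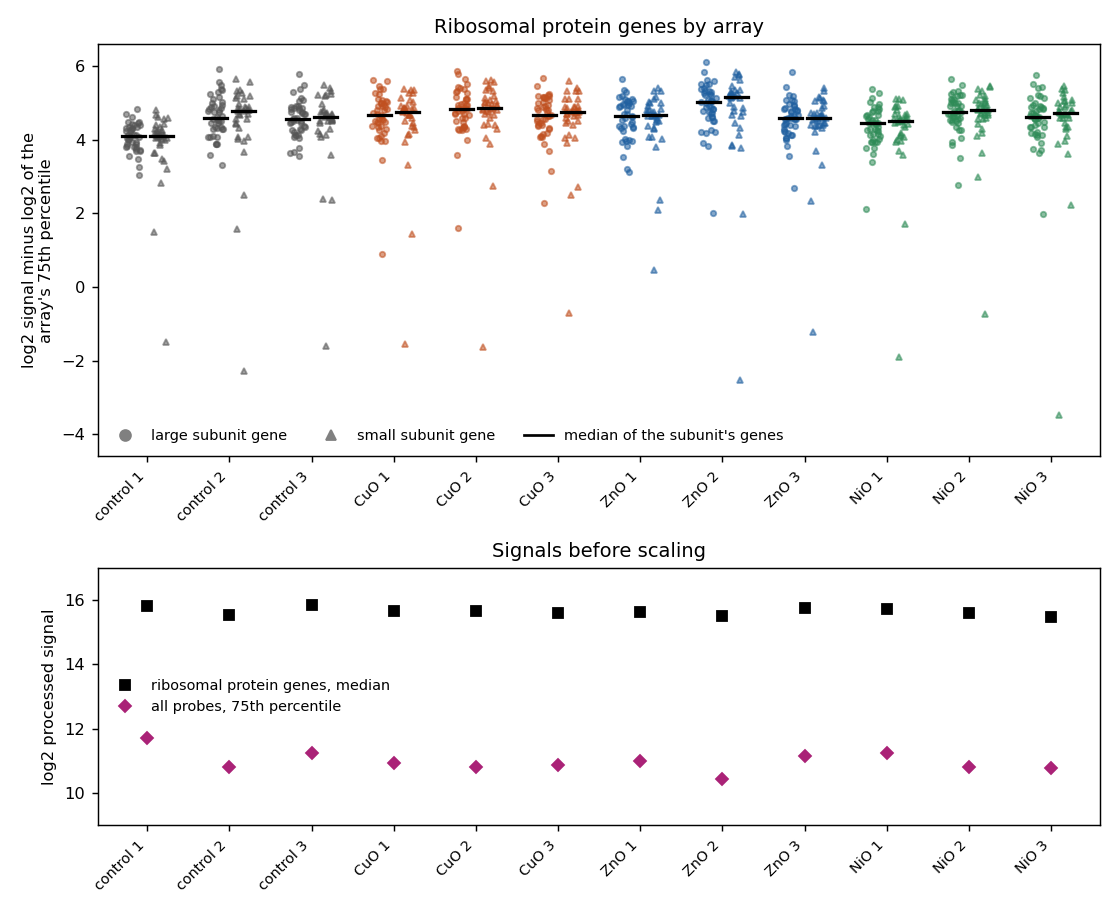
Upper panel: log2 signal relative to the array's 75th percentile for each ribosomal protein gene on each of the 12 arrays, with circles for the large and triangles for the small subunit and a bar at each subunit's median. Lower panel: log2 processed signal before scaling, as the median of the ribosomal protein genes (squares) and the 75th percentile of all probes (diamonds). Control 1 has the lowest medians (4.09 large, 4.11 small) and the highest 75th percentile, and ZnO 2 the highest medians (5.02 and 5.15) and the lowest 75th percentile. The points below 0 all belong to 1 small subunit gene.

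Within slides, the difference was largest on the slide with control 1. On slide 1, which holds control 1, the median member difference was 0.65 for CuO, 0.58 for ZnO and 0.36 for NiO, and 74 of 76, 73 of 74 and 71 of 75 members with both values were positive. On slide 2 the medians were 0.16, 0.33 and 0.07. On slide 3 they were 0.10, -0.00 and 0.06, with 52, 39 and 48 of 79 members positive. The medians of all genes were 0.45, 0.32 and 0.22 within slide 1, below those of the members, 0.28, 0.30 and 0.08 within slide 2, and 0.30, 0.23 and 0.21 within slide 3, above those of the members.

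Large and small subunit genes moved alike. The median difference from control was 0.30 for the large and 0.31 for the small subunit under CuO, 0.29 for both under ZnO, and 0.14 and 0.15 under NiO. Over the 73 members with a value on every array, 2 members correlated across the 12 arrays with a median r of 0.76, and after subtraction of the array's member median with a median r of 0.01. These correlations share the arrays and their scaling and are given as a description. Subtracting the members' own median removes what they share, so an r near 0 follows largely from that step. The median below likewise includes each member's own value. Against the array's member median, 50 of the 73 had r above 0.8 and 6 lay under 0.5, among them rps23 (0.15), rps20 (0.36), rpl24 (0.36), rps27l (0.42) and rpl28 (0.49).

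Counted by arrays, the exposed and control values overlapped for most members. All CuO arrays lay above all controls for 23 of 79 members, 29.1% against 27.4% of all genes, and below them for 1 (20.8% of all genes). The ZnO arrays lay above the controls for 9 members (25.6% of all genes) and below for 2, rpl7l1 among them (17.2% of all genes). The NiO arrays lay above for 4, with rpl26, rpl4 and rps20 among them (22.9% of all genes), and below for 1 (19.7% of all genes). The CuO share was therefore near that of all genes, and the other shares of members lay under it. Without control 1, members above the controls numbered 24, 9 and 4 against 34.1, 30.9 and 28.9% of all genes, and members below them 2, 2 and 9 against 24.5, 20.1 and 23.8%.

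The exposures did not separate from each other in these genes. CuO against ZnO, CuO against NiO and ZnO against NiO gave 0 called members and 0 called genes of 12616 (0% in each), and at an unadjusted p under 0.05 limma gave 1, 0 and 0 members and 1252, 784 and 620 genes. The median member difference was 0.01, 0.14 and 0.13. Within 0.5 on the log2 scale lay 78, 77 and 78 of the 79 members.

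Among the large subunit genes, rpl5 and rpl11 also have a role off the ribosome. In vertebrates Rpl5 and Rpl11 carry the smallest ribosomal RNA into the large subunit, and when free of the ribosome they bind Mdm2 and so stabilise p53. The rpl11 probe read 4.71, 5.93 and 5.79 on the controls, 5.63, 5.85 and 5.47 under CuO, 5.35, 6.10 and 5.84 under ZnO, and 5.39, 5.48 and 5.75 under NiO. Control 1 was the low value, and the other arrays of all groups overlapped. The zebrafish has 2 rpl5 genes, and rpl5a read 4.10, 4.95 and 4.75 on the controls and 4.64 to 5.26 on the 9 exposed arrays. The differences of rpl5a were 0.38 under CuO, 0.39 under ZnO and 0.22 under NiO (SE 0.28 each, adjusted p = 0.320, 0.320 and 0.601), and those of rpl11 were 0.17, 0.29 and 0.06.

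Proteins of the large subunit's working parts showed equally narrow values. Rpl3, Rpl4, Rpl8 and Rpl10 lie near the peptidyl transferase centre, where peptide bonds form, and the median difference of their genes was 0.35 under CuO, 0.22 under ZnO and 0.20 under NiO, with 0 of 4 called. The 10 genes of proteins around the exit of the nascent chain, such as rpl17, rpl19, rpl26, rpl31, rpl35 and rpl39, had medians of 0.25, 0.31 and 0.14 with 0 called. In that set rpl26 was the member whose 9 exposed arrays all lay above the controls: 4.40, 4.93 and 4.92 on the controls, 5.12, 5.32 and 5.01 under CuO, 4.98, 5.37 and 4.98 under ZnO, and 4.97, 5.22 and 5.18 under NiO. Its differences were 0.40, 0.36 and 0.38 (SE 0.25) and passed no test (adjusted p = 0.250, 0.311 and 0.308). Another rpl26 probe correlated with the one above at r = 0.91 and did not separate the arrays in this way. Relative to the one above it lay at -0.23 on control 2 and -0.43 on NiO 1, so its level on NiO 1 was below control 2. The genes of Rpl12, at the base of the factor-binding stalk, and Rpl10a, of the L1 stalk that handles leaving tRNA, had medians of 0.12, 0.22 and -0.05.

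In the small subunit, genes of proteins near the decoding site and the mRNA entry (rps2, rps3, rps9, rps15, rps23) had median differences of 0.21 under CuO, 0.27 under ZnO and 0.08 under NiO, with 0 of 5 called. The 8 genes of the platform and mRNA exit (among them rpsa, rps3a, rps13, rps14, rps26, rps26l and rps28) had 0.33, 0.36 and 0.20, with 0 called. The 9 genes of the head, rps20 among them, had 0.31, 0.27 and 0.13, with 0 called. No gene of these 3 roles passed the test.

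The P stalk genes, outside the symbol rule, were not called either. Rplp0, Rplp1 and Rplp2 form the flexible stalk that recruits elongation factors, and their genes had median differences of 0.38 under CuO, 0.29 under ZnO and 0.14 under NiO with 0 of 3 called. The rplp2 probe, picked out after its values were seen, read 3.97, 3.93 and 4.32 on the controls, 4.67, 4.76 and 4.77 under CuO, 4.78, 5.02 and 4.34 under ZnO and 4.34, 5.09 and 4.34 under NiO. All 9 exposed arrays lay above the 3 controls, and its differences of 0.66, 0.64 and 0.51 passed no test (adjusted p = 0.118, 0.131 and 0.231). Among 8 genes of other ribosome-bound factors, 1 rose in each comparison: bag6, a chaperone for membrane proteins leaving the ribosome (1.02, 1.42 and 1.28, adjusted p = 0.0192, 0.00569 and 0.0105). That is 12.5% of the list, near the share of all genes that rose (11.4, 13.8 and 10.1%).

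The gene that fell was rpl7l1, a relative of rpl7 found in the nucleolus in mammals and not a standard part of the mature ribosome. Its single probe had no value on control 1, where the spot was left out as an outlier. It read 3.30 and 3.63 on controls 2 and 3, 0.89, 1.61 and 2.29 under CuO, 3.13, 2.01 and 2.68 under ZnO, and 2.11, 2.77 and 2.00 under NiO. Every exposed array lay below both controls, and CuO 1 was the lowest. The mean was 1.6 ± 0.70 (SD, n = 3) under CuO and 3.47 ± 0.23 (n = 2) in the controls, a 3.66-fold lower signal (difference -1.87, SE 0.49, limma's adjusted p = 0.0222). In the main analysis the differences under ZnO (-0.86, adjusted p = 0.222) and NiO (-1.18, adjusted p = 0.114) passed no threshold, and CuO against ZnO did not either (-1.01, adjusted p = 0.497). With array weights 1 member fell under NiO, where 32.9% of all genes were called, and the members called in that setting were rpl7l1, rps20 and rps28. The CuO call rests on few arrays: it was lost without CuO 1 (-1.52, adjusted p = 0.0722), without CuO 2 (-1.87, adjusted p = 0.0571) and with the slide as a block (-1.81, adjusted p = 0.0667), and without control 2 or control 3 the gene had too few values to be tested. The oocyte markers above lie high in the same controls and their part in the value was not tested. With their mean as a covariate the difference was -1.82 (limma's adjusted p = 0.898). The median oocyte marker read 4.04 to 4.24 on the controls, 2.76 on NiO 1 and -5.69 to -3.87 on the other exposed arrays. That covariate thus nearly repeats the split into control and exposed arrays, and the fit cannot separate oocyte RNA from exposure. The gene rpl7, a core large subunit relative of rpl7l1, read 4.24, 4.80 and 4.69 on the controls and 4.29 to 4.99 on the exposed arrays.

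The largest positive difference belonged to rps20, whose protein lies in the small subunit head. Its probe read 2.84, 2.5 and 2.36 on the controls, 3.31, 3.89 and 2.71 under CuO, 2.38, 3.77 and 3.31 under ZnO, and 3.68, 3.63 and 3.61 under NiO. The NiO values lay close together and above every control, whereas CuO 3 and ZnO 1 fell among the controls. The difference under NiO was 1.08 (2.11-fold, SE 0.40, 95% interval 0.20 to 1.96), with an unadjusted p of 0.0214 and an adjusted p of 0.0775 by limma, and was not called. The gene was called under NiO when ZnO 1 was left out, where 22.8% of all genes were called. It was also called under CuO with array weights (48.5% of all genes). That setting called 1 rise among the members under NiO too (32.9% of all genes), and the members it called were rpl7l1, rps20 and rps28. A second rps20 probe followed the first across the arrays with r = 0.98 (n = 12 arrays).

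Among the 5 largest ranges of group means was also that of rps28, of the platform near the mRNA exit. The rps28 probe read 3.48, 4.07 and 4.16 on the controls, 4.46, 4.69 and 4.50 under CuO, 4.51, 4.14 and 4.39 under ZnO and 4.14, 4.58 and 4.33 under NiO. The CuO arrays lay above all controls (difference 0.65, SE 0.26, adjusted p = 0.0967). Its unadjusted p by limma was 0.0341, and it was not called. With array weights it was called under CuO, where that setting called 48.5% of all genes. Tested probe by probe, that setting called no rps28 probe. A second rps28 probe did not follow the one above across the arrays (r = 0.04, n = 12 arrays). Relative to the one above it lay at -1.32, -1.57 and -1.92 on the controls and lower on every CuO array. The rise under CuO thus rests on the main probe alone.

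The smallest spread of group means was that of rps3a, whose product helps form the mRNA exit of the small subunit. Its probe read 4.59, 4.97 and 4.71 on the controls, 4.74, 4.91 and 4.79 under CuO, 4.65, 4.85 and 4.53 under ZnO and 4.56, 5.04 and 4.78 under NiO. The group means spanned 0.14 on the log2 scale, and every difference from control was between -0.08 and 0.06.

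**Figure D3:**
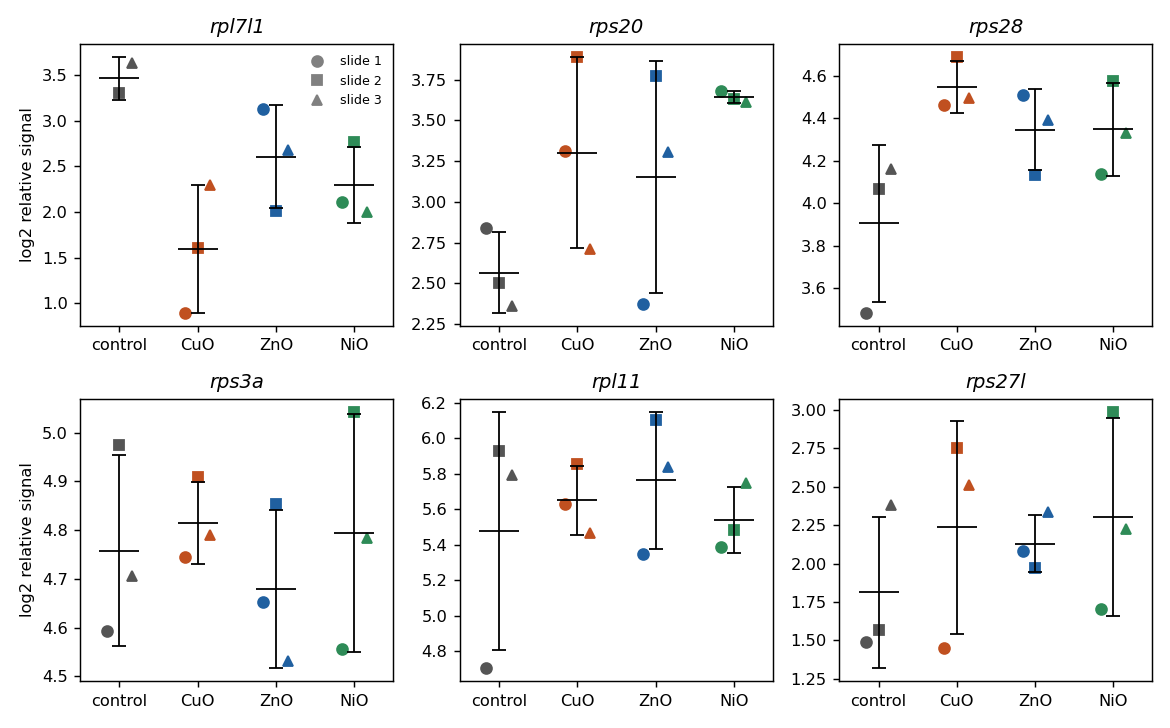
Log2 relative signal of 6 members in the 4 groups, with one point per array (symbol by slide) and the mean ± SD of the arrays with a value (black). Each panel has its own vertical axis. The exposed arrays of rpl7l1 lie below both measured controls, the NiO arrays of rps20 lie together above the controls, and the points of rps3a overlap in all groups.

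Members with close relatives could be compared only through their own probes. The rps27l probe, for a homologue whose mammalian gene is a p53 target, read 1.49, 1.57 and 2.38 on the controls and 1.45 to 2.99 after exposure, with differences of 0.42, 0.32 and 0.49 (SE 0.44, adjusted p = 0.485, 0.621 and 0.447). The 2 genes rps27.1 and rps27.2 had differences of 0.48, 0.40 and 0.28, and 0.36, 0.48 and 0.39, none called. The gene rpl22l1, a relative of rpl22, differed from control by 0.01, 0.16 and 0.13, and rpl22 by 0.19, 0.31 and 0.12. Among 16 members with close relatives the medians were 0.28, 0.32 and 0.14. A probe may bind transcripts of near-identical copies, so the values of these relatives are uncertain.

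Most members had several probes on the array. Of 163 member probes tested, 53 members had more than 1 and 26 had 1. Tested probe by probe, 2 rose and 1 fell under CuO, against 10.5% of all probes each way; 1 rose and 0 fell under ZnO (9.84 and 9.80% of all probes), and 0 were called under NiO (8.15 and 9.01%). No member had probes called in opposite directions. The probes that rose were dimmer second probes. For rpl37 the second probe read -0.45, -0.65 and -0.25 on the controls, 0.96, 1.07 and 0.96 under CuO, 1.52, 0.50 and 0.34 under ZnO and 0.52, 0.82 and 0.36 under NiO, with differences of 1.45 under CuO (adjusted p = 0.0175), 1.24 under ZnO (adjusted p = 0.0338) and 1.02 under NiO (adjusted p = 0.0705). The main rpl37 probe differed by 0.10, 0.08 and -0.10 in the same comparisons, and the correlation of the 2 probes over the 12 arrays was 0.04. For rpl31 a dimmer probe read -2.51, -1.83 and -1.35 on the controls and -0.79, -0.16 and -0.86 under CuO (difference 1.3, SE 0.40, adjusted p = 0.0431), whereas the main probe differed by 0.24. Another dim rpl31 probe was not called in any comparison. Relative to the main probe it lay at -5.82, -5.28 and -3.90 on the controls and -4.90, -3.44 and -4.62 under CuO, with overlap. With the slide as a block the calls of rpl31 under CuO (adjusted p = 0.0644) and of rpl37 under ZnO (adjusted p = 0.0539) were lost. Over the 12 fits that leave out 1 array, rpl37 was called in 9 under CuO and 5 under ZnO, and rpl31 in 3 under CuO.

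Probes of one gene did not always follow each other. Among 84 second probes, 32 correlated with the gene's main probe above 0.8 over the arrays, 30 lay under 0.5 and 7 under 0. A recurrent form, picked out after its values were seen, was a probe that read higher on CuO 3, ZnO 1 and NiO 2 than on each of the other 9 arrays. It was met by 15 of 144 member probes with a value on every array (10.4%) and by 11.8% of all 36300 such probes, and the reverse by 0 and 2.36%. The 15 probes belong to 14 members. For rpsa, the laminin receptor homologue of the small subunit, such a probe read 4.62, 4.30 and 4.44 on the controls, 4.06, 4.40 and 5.26 under CuO, 5.20, 3.53 and 4.25 under ZnO and 3.96, 5.43 and 4.21 under NiO. The main rpsa probe read 4.40, 5.35 and 4.96, then 5.35, 5.35 and 5.09, then 5.01, 5.75 and 5.13, then 5.11, 5.20 and 5.36 on the same arrays (r = -0.46).

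The same arrays stood out in other measures. CuO 3, ZnO 1 and NiO 2 had the lowest all-gene medians relative to the 75th percentile (-0.58, -0.64 and -0.68, against -0.50 to -0.31 on the other 9). They were also, with control 3, the arrays with low eye markers (medians of 32 genes of -5.30, -5.25 and -4.84, and -5.63 on control 3, against 0.03 to 1.86 on the rest). The part of these in the probe values was not tested. Without those 4 arrays limma called 0 members against control (1 in each comparison at an unadjusted p under 0.05), rpl7l1 having too few control values to be tested, and 21.6% of all genes under CuO, 15.2% under ZnO and 0% under NiO. Among main probes the form was seen in rps23, whose product lies at the decoding site: 4.70 on CuO 3, 4.81 on ZnO 1 and 4.88 on NiO 2, and 3.86 to 4.46 elsewhere.

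**Figure D4:**
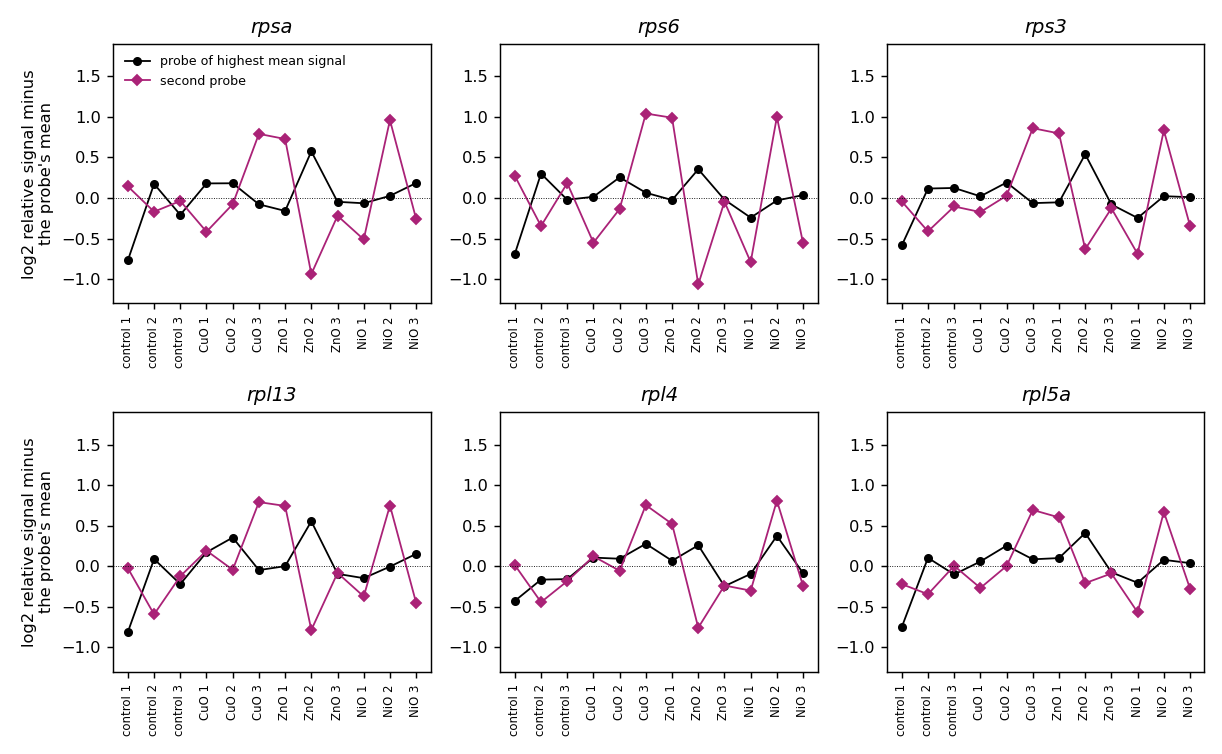
Log2 relative signal of the main probe (black) and of a second probe (purple) of 6 members on the 12 arrays, each minus that probe's mean over the arrays. The second probes of rpsa, rps6, rps3, rpl13, rpl4 and rpl5a peak on CuO 3, ZnO 1 and NiO 2, while the main probes are lowest on control 1.

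Translation factors were called no more often than genes in general. Of 12 elongation factor genes, 1 (8.33%) rose under CuO and ZnO, eef1a2, the elongation factor 1 alpha form typical of muscle and nerve in mammals. It read -2.87, -1.56 and -1.98 on the controls and -0.98 to 1.25 on the exposed arrays, with differences of 2.58 (adjusted p = 0.0108) and 2.02 (adjusted p = 0.0309). Of 39 initiation factor genes, 1 rose and 3 fell under CuO, 3 rose and 0 fell under ZnO, and 2 rose and 0 fell under NiO. These are 2.56, 7.69 and 5.13% that rose and 7.69, 0 and 0% that fell, below the shares of all genes (11.4, 13.8 and 10.1% rose and 13.7, 11.9 and 12.1% fell). The rises included eif3hb, a subunit of the eIF3 complex that readies the small subunit (1.42 under ZnO and 1.21 under NiO), and the falls eif1b, a factor in start codon selection (-2.11 under CuO, adjusted p = 0.00646).

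Ribosome biogenesis genes fell in a larger share than all genes under CuO and NiO, and in about the same share under ZnO. Of 85 ribosome biogenesis genes, 23 fell and 1 rose under CuO, 10 fell and 6 rose under ZnO, and 15 fell and 1 rose under NiO, with medians of -0.41, -0.01 and -0.30 against 0.42, 0.32 and 0.27 for all genes. The falls under CuO (23 of 85) stand against 13.7% of all genes, those under ZnO (11.8%) against 11.9% and those under NiO (17.6%) against 12.1%, and the rises (1.18, 7.06 and 1.18%) against 11.4, 13.8 and 10.1%. The processing factor gene imp3 read 2.04, 2.13 and 2.79 on the controls, -2.35, -1.98 and -0.70 under CuO, 0.54, -2.08 and -1.0 under ZnO, and -0.20, -0.11 and -1.58 under NiO. All exposed arrays lay below the controls (differences of -4.0, -3.17 and -2.95, adjusted p = 0.00372, 0.0100 and 0.0155). Other falls under CuO were nol11, a factor for early rRNA processing (-2.36), and snu13b, of the small nucleolar particles (-2.20), whereas mybbp1a, a nucleolar protein, rose (0.71, adjusted p = 0.0458). Oocyte markers fell in the same comparisons (23, 23 and 22 of 26), as did proliferation markers (14, 6 and 11 of 17, with 2 rising under ZnO), and their part in the calls of this list, of the polymerases, of the mitochondrial ribosome and of mTOR signalling was not tested.

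Of 25 genes of RNA polymerases I and III, which make ribosomal RNA and tRNA, 12 fell and 2 rose under CuO, 11 and 2 under ZnO and 10 and 1 under NiO. The falls are 48, 44 and 40% of the list, against 13.7, 11.9 and 12.1% of all genes. The rises are 8, 8 and 4%, against 11.4, 13.8 and 10.1%. The leading falls were gtf3ab, whose product activates 5S rRNA genes and which is also on the oocyte list, polr3g, of polymerase III, and taf1b, of the polymerase I initiation complex (-3.51, -3.44 and -3.26). The gtf3ab probe read 4.34 to 4.44 on the controls, 3.1 on NiO 1 and -9.05 to -3.34 on the others (well above background on 2 of 3 ZnO arrays), and polr3g 1.48 to 1.82, 0.64 and -3.77 to -2.74. Those arrays are the ones on which the oocyte markers were high or low in the same way, and the part of that in these falls was not tested. The nucleolar transcription factor ubtf rose in each comparison (1.05, 1.04 and 1.00, adjusted p = 0.0374, 0.0391 and 0.0495).

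Proteins of the mitochondrial ribosome form a separate set, listed after the files were seen. Of 65 such genes, 24 fell and 0 rose under CuO, 15 fell and 1 rose under ZnO and 19 fell and 0 rose under NiO. The falls are 36.9, 23.1 and 29.2% of the list, against 13.7, 11.9 and 12.1% of all genes. The rises are 0, 1.54 and 0%, against 11.4, 13.8 and 10.1%. The list medians were -0.75, -0.32 and -0.70, against 0.42, 0.32 and 0.27 for all genes. The large subunit gene mrpl17, picked out after its values were seen, read 2.6, 2.5 and 2.73 on the controls, 0.44, 0.62 and 0.46 under CuO, 1.20, 0.85 and 1.14 under ZnO and 1.21, 0.21 and 0.56 under NiO, with no overlap. Its differences were -2.10, -1.55 and -1.95 (adjusted p = 0.00166, 0.00523 and 0.00415).

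Among 23 genes of mTOR signalling and growth control, 3 rose and 3 fell under CuO, 5 rose and 1 fell under ZnO, and 3 rose and 2 fell under NiO. The rises are 13, 21.7 and 13% of the list and the falls 13, 4.35 and 8.7%, against 11.4, 13.8 and 10.1% and 13.7, 11.9 and 12.1% of all genes. The kinase gene mtor itself read -0.90, -1.38 and -0.94 on the controls and -0.09 to 0.60 on the exposed arrays, with no overlap, and rose by 1.36, 1.37 and 1.33 (adjusted p = 0.00672, 0.00719 and 0.0104). The myc family did not move as one. Its member mycla fell in each comparison (-4.24, -3.89 and -3.87), whereas mycn and myca rose under ZnO (2.41 and 1.36, limma's adjusted p = 0.0106 and 0.0196). The stress-induced mTOR inhibitor gene sesn3 rose in each comparison (2.09, 1.25 and 1.53), whereas ddit4, of the same list, fell under CuO (-2.08, limma's adjusted p = 0.0409).

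**Figure D5:**
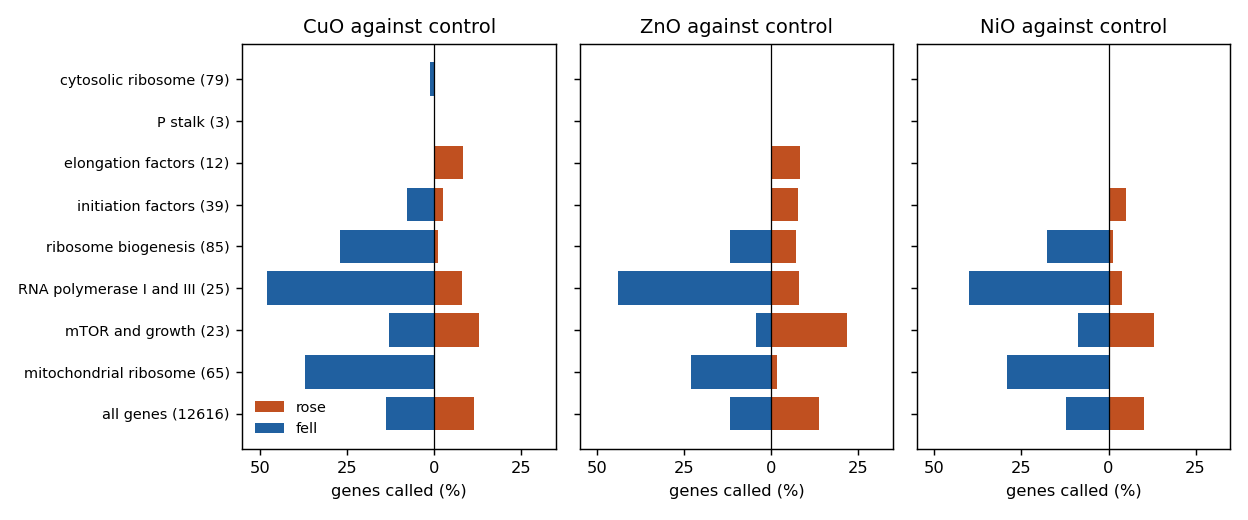
Share of the tested genes of each list (%, number tested in brackets) that rose (orange, to the right) or fell (blue, to the left) against control at an adjusted p of 0.05, one panel per exposure. The cytosolic ribosome shows a single fall under CuO, and the polymerase and mitochondrial ribosome lists show mainly falls in all 3 panels. The biogenesis list shows mainly falls under CuO and NiO, and 11.8% falls beside 7.06% rises under ZnO.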

How the data were processed

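Scanner files of 12 one-colour arrays were used. Per the file headers, Feature Extraction 11.5.1.1 gave a processed intensity per spot, deposited by the authors without scaling between arrays; the array annotation was made on danRer7. The submitters' processing notes name MAS5, version not given in the sources used here. In the deposited series table, also an intensity, 10 of 12 columns equalled, within 0.1%, the scanner file of a different sample, so it served only as an alternative.

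Control and outlier spots were left out, spots of a probe averaged, and log2 of the intensity taken relative to each array's 75th percentile. Testing was limited to probes that cleared background throughout 1 or more groups and had 2 or more values per group (37130 of 43603 probes; 26094 carried a RefSeq accession matching 1 symbol of the GRCz12tu annotation, 17509 none). Of several probes, the brightest on average stood for the gene. All 79 member probes were well above background wherever they had a value.

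Differences were tested in R 4.3.3 with limma 3.58.1 (4 group means, eBayes, Benjamini-Hochberg over all genes, adjusted p of 0.05), checked on simulated data. The labels call the pools biological replicates. The members and lists were chosen with earlier results of these data known, and the mitochondrial list was added after the files were seen. Members named are those called, those with a role list, and the largest and smallest ranges of group means; other genes are up to 3 called each way per list. Replicate numbers match slides, and the slide block was an alternative. Alternatives covered background correction (normexp on median signals), scaling, filters, probe choice, slide block, array weights, an oocyte covariate, the deposited table and leaving out each array. No sequences are printed, and some members are not reported here.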

Additional observations from a re-analysis of the deposited data

How the results depend on the processing

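No member rose against control under any of the 14 alternatives other than leaving out an array, except with array weights. There 2 rose under CuO (rps20 and rps28), 1 rose and 1 fell under NiO, and the F test called 2. The members called there against control were rpl7l1, rps20 and rps28. That setting called 48.5% of all genes under CuO and 32.9% under NiO. The F test called 1 with arrays centred on the median of tested probes. The fall count under CuO was 0 with the replicate block, the deposited series table, the oocyte covariate, the filter on all 12 arrays and without control 3, CuO 3, ZnO 1 and NiO 2, the last 2 settings leaving rpl7l1 untested. Under CuO the block called 23.6% of all genes, whereas limma on the deposited table and with the covariate called 0 genes in each comparison (254, 229 and 554, and 678, 332 and 939 genes at an unadjusted p under 0.05), so those 2 settings could call no member. Leaving out 1 array gave 0 to 1 falls under CuO and 0 to 1 rises under NiO (rps20, without ZnO 1). Member medians moved to -0.089, -0.11 and -0.16 (CuO, ZnO, NiO) without scaling and to -0.045, -0.13 and -0.087 with the oocyte covariate. With arrays centred on the members they were -0.00035 and -0.0066 (CuO, ZnO), values held near 0 by construction. Members minus all genes gave 0.15, 0.34 and 0.20 in the deposited table, and -0.29 under ZnO with the oocyte covariate. No scaling and centring on the members were chosen after seeing the data.

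Of the CuO member probes that rose (2 in the main analysis), 1 remained in number with the detected-probe percentile, centring on tested probes, no dim filter, quantile normalization, the replicate block and without those 4 arrays; 0 did with member centring, the deposited table, no scaling and the oocyte covariate; and 4 with array weights. For ZnO (1) the number was 0 with the detected-probe percentile, member centring, the deposited table, no scaling, the oocyte covariate, the block and without those 4 arrays, and 2 with array weights and normexp. For NiO (0) it was 4 with array weights, 2 with normexp and 1 with the filter on all 12 arrays, and 1 probe fell with array weights. The CuO probe fall count was 0 with no scaling, and with the block, table, covariate, filter on all 12 arrays and without those 4. Leaving out 1 array gave 0 to 2 (CuO), 0 to 1 (ZnO) and 0 to 2 (NiO) rises and 0 to 1 falls (CuO). The rpl37 second probe turned to -0.33 under CuO and -0.29 under ZnO in the deposited table, whose columns mostly hold other samples. The cause of the other shifts was not tested. Of 18 pairs of arrays with the same replicate number, 7 had deviations from the group means correlated above 0.1 (r from -0.58 to 0.48). Among 36 pairs with different numbers 18 did (r from -0.63 to 0.64), so arrays that share a number, and with it a slide, were no more alike. The replicate block changed no member call other than those of rpl7l1, rpl31 and rpl37.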
